A study of Homo sapiens with 12 samples.

Results

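The messenger RNA levels of 39 genes of homologous recombination and related DNA repair were examined in human prostate cancer cells with and without knockdown of FOXA1, a forkhead transcription factor of the luminal prostate epithelium. The members were the rows whose gene symbol is one of 39 listed repair genes, out of 60106 genes in the deposited tables. The rule used no measured value, but the list was chosen with earlier results of these data known. All 39 were found and all 39 had enough counts to be tested in both lines. The cells were PC3, an established line from a bone metastasis, and VCaP, an established line from a vertebral metastasis with a rearranged ERG gene. Each line received a non-targeting siRNA (NSI) or siRNA against FOXA1 (siFOXA1), delivered with RNAiMax, and RNA was taken at 72 hours from 3 libraries per group. PC3 grew in RPMI with 20 nM siRNA and was sequenced from poly(A) RNA with a TruSeq stranded mRNA kit. VCaP grew in DMEM with 40 nM siRNA and was sequenced with a TruSeq total RNA kit. Line, dose, medium, kit and the way strand was counted therefore cannot be told apart. No label says that the replicates came from separate cultures, so the p-values measure only the spread between these libraries.

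Homologous recombination repairs a double-strand break by copying the intact sister chromatid. The broken ends are sensed and trimmed to single strands, a recombinase is loaded on them with the help of BRCA1, PALB2 and BRCA2, and the filament then invades the sister. The Fanconi anaemia proteins open DNA crosslinks and hand the break to the same machinery, while the kinases ATM and ATR halt the cell cycle. Many of these genes are transcribed in S and G2 phase, and inherited or tumour loss of several of them is known in aggressive prostate cancer.

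The knockdown itself differed in depth between the lines. FOXA1 (ENSG00000129514.5_2, chr14:38059189-38064239, minus strand, GRCh37) had 296, 247 and 261 CPM (counts scaled to a common library size) in the PC3 NSI libraries and 165, 184 and 164 in siFOXA1. The log2 change was −0.65 (SE 0.10, adjusted p = 0.00222, edgeR's quasi-likelihood test with Benjamini-Hochberg adjustment over all genes). In VCaP the NSI libraries held 458, 468 and 544 CPM and the siFOXA1 libraries 85.2, 73.6 and 83.1, with a log2 change at −2.60 (SE 0.09, adjusted p = 1.84e-07). The siFOXA1 libraries thus kept 63.8% of the NSI level in PC3 and 16.5% in VCaP. PC3 libraries held 123140099 to 188226483 counts and VCaP libraries 48187047 to 59839211. The prostate epithelial markers KRT8, KRT18 and EPCAM summed to 360 to 539 CPM in every library, but single markers moved. In PC3 the mean of KRT8 went from 126 CPM in NSI to 169 in siFOXA1, that of KRT18 from 273 to 193 and that of EPCAM from 23.8 to 17.8. In VCaP, KRT18 went from 122, 116 and 137 CPM in NSI to 81.9, 81.1 and 77.4 in siFOXA1, while KRT8 and EPCAM overlapped. Of the fibroblast markers, LUM had 13.3, 10.1 and 8.01 CPM in VCaP NSI and 0.714, 0.716 and 0.571 in siFOXA1, while DCN was at 0.179 CPM or less in every library. In bulk RNA, fewer cells of a type and less RNA per cell cannot be told apart.

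With the non-targeting siRNA, the 2 Ku genes and PARP1 had the highest levels in PC3, and these and PRKDC the highest in VCaP. Levels between genes were compared per kilobase of exon. XRCC6, one subunit of the Ku ring that caps broken ends, had the highest level, 100.0 CPM per kilobase in PC3 and 113 in VCaP. XRCC5, the other Ku subunit, had 52.9 in PC3 and 88.1 in VCaP, and PARP1, which marks strand breaks with poly(ADP-ribose), 37.8 and 76.1. At the low end, BRCA2, which loads the recombinase, had 0.286 CPM per kilobase in PC3, and RAD51B, a recombinase paralog, 0.79 in VCaP. BARD1, the obligate partner of BRCA1, lay near the bottom in PC3 at 0.406 CPM per kilobase and among the highest in VCaP at 21.7. PRKDC, the catalytic subunit of DNA-dependent protein kinase, had 7.71 in PC3 and 83.2 in VCaP. The lines were normalized apart, and their levels were not tested against each other.

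**Figure D1:**
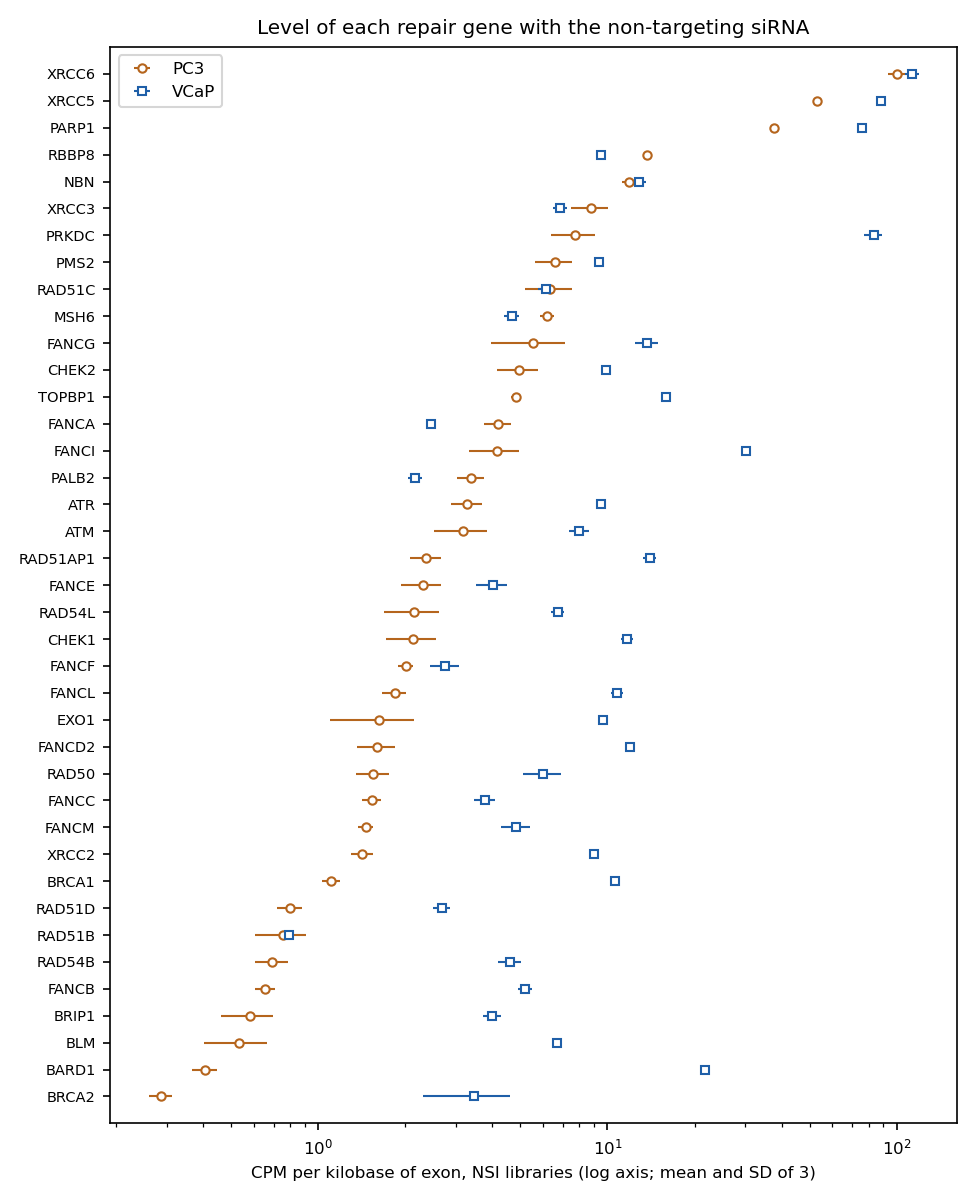
Level of each of the 39 genes in the NSI libraries, in CPM per kilobase of exon on a log axis, with the mean and SD of 3 libraries for PC3 (circles) and VCaP (squares), ordered by the PC3 level. XRCC6 is at the top in both lines, and BARD1 and PRKDC lie far to the right in VCaP of where they lie in PC3.

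After FOXA1 knockdown, most of the recombination and repair genes fell in VCaP, and few were called in PC3. In VCaP, 22 of the 39 members fell and 1 rose at an adjusted p under 0.05, with 16 not called. Of all 22925 genes tested in VCaP, 45.8% were called; 23.3% were called lower and 22.5% higher, so the members' share lower, 56.4%, was above that background and their share higher, 2.56%, below it. The median log2 fold change of the 39 was −0.30 in VCaP, against 0.02 over all genes tested. In PC3, 4 members fell, 2 rose and 33 were not called, and DESeq2 called the same 6. With the replicate number as a block, since same-numbered PC3 libraries deviated together, 6 fell and 7 rose in PC3, against 21% and 21.7% of all genes. The block added BRCA2, RAD50, RBBP8, ATM and CHEK1 as higher and PMS2 and PRKDC as lower. Of all 26435 genes tested in PC3, 27% were called; 12.1% were called lower and 15% higher, against 10.3% and 5.13% of the members. The PC3 shares therefore lay near or below the background, and the median of the members was −0.04 against 0.02 for all genes. Replicates varied more in PC3, where edgeR's biological coefficient of variation was 15%, against 9.9% in VCaP. The shares of all genes called lower and higher in each line are also the background for the counts by role and list below.

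**Figure D2:**
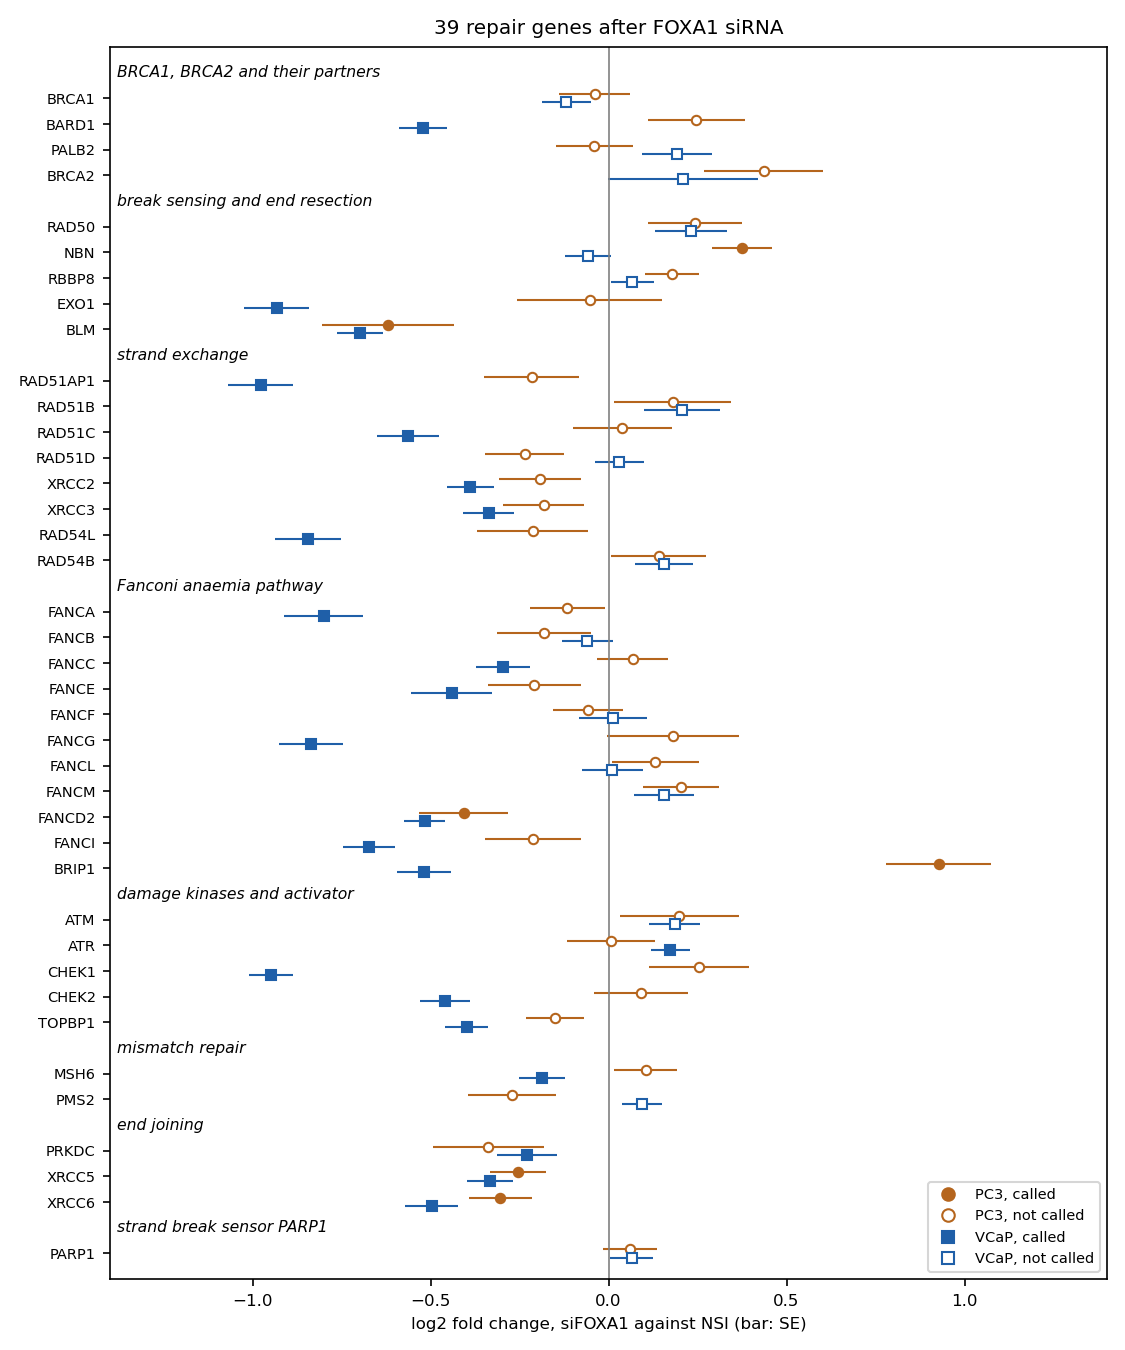
Log2 fold change of siFOXA1 against NSI for each of the 39 genes, grouped by role, with the SE as a bar, in PC3 (circles) and VCaP (squares). Filled symbols passed the adjusted p of 0.05; in VCaP 22 filled squares lie left of 0 and 1 lies right of it.

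The promoters of 34 of the 39 members were found in RefSeq (GRCh38.p14), and the 250 bases before the start were searched on both strands for 4 short motifs. These and the windows shown were picked after the values were known. A gene with several annotated starts was counted as holding a motif if any of its starts had it. TTCCCGC, a form of the E2F site of S-phase genes, stood in 10 of 34 members, or 29.4%, against 6.7% of 27305 genes. Of these 10 members, 6 fell in VCaP (median −0.24), and of the 24 without it 13 fell (median −0.36). CCAAT, the box bound by NF-Y, stood in 16 members, 47.1%, against 37.0% of genes. Of these, 10 of 16 fell in VCaP (median −0.40), against 9 of 18 without it (median −0.18). TTTGAA, the core of the CHR element of late cell-cycle genes, stood in 3 members (8.8% against 16.1%). TGTTTAC, a forkhead consensus, stood in 0 of 34 members and in 3.7% of genes, which says only that these letters are not in this window. Shown are windows upstream of the start of 4 members that fell in VCaP (RAD54L, FANCG, BLM, CHEK1), of BRIP1, called in opposite directions, and of PARP1, not called; all are read 5′ to 3′ on the gene's strand and capitals mark the E2F-like and CCAAT letters in either orientation. On GRCh38.p14 they are RAD54L at chr1:46247538-46247687 (plus strand), FANCG at chr9:35079943-35080092 (minus strand), BLM at chr15:90717196-90717345 (plus strand), CHEK1 at chr11:125626079-125626228 (plus strand), BRIP1 at chr17:61863560-61863678 (minus strand) and PARP1 at chr1:226408101-226408243 (minus strand).
RAD54L: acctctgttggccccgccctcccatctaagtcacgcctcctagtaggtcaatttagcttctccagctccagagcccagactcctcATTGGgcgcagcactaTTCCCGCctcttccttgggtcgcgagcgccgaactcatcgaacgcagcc
FANCG: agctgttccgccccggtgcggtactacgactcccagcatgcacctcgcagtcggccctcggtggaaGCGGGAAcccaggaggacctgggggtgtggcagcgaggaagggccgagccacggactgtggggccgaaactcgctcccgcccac
BLM: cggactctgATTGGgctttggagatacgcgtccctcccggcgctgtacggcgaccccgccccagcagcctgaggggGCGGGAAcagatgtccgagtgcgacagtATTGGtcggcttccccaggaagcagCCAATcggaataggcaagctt
CHEK1: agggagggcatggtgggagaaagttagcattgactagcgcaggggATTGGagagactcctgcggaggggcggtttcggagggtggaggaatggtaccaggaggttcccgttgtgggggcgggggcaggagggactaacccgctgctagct
BRIP1: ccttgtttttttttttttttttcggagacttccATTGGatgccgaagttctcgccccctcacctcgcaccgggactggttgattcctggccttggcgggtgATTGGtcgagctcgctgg
PARP1: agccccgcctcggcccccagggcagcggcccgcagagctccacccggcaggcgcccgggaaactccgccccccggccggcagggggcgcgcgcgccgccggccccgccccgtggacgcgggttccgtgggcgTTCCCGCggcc
RAD54L had 2 annotated starts and CHEK1 3, and the window shown is that with the least annotated untranslated sequence. The BRIP1 and PARP1 windows were cut at positions −32 and −8, where such sequence begins, and do not reach the start. In these windows RAD54L and BLM carried both motifs, BLM with 3 CCAAT boxes. CHEK1 and BRIP1 carried CCAAT boxes only, and FANCG and PARP1, whose level was not called as changed, the E2F-like letters alone. BRIP1 also had TTTGAA among the 250 bases searched, outside the part shown. Every window shown holds such letters, whereas EXO1, BARD1, FANCD2, RAD51C and XRCC2, among others, fell in VCaP with none of the 4 motifs.

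Among BRCA1, BRCA2 and their partners, 1 of 4 fell in VCaP (25%, near the 23.3% of all genes) and none of 4 was called in PC3. There BRCA2 passed an unadjusted p of 0.05 and, with the block, the adjusted one. BRCA1 (ENSG00000012048.21_4, chr17:41196312-41277500, minus strand), a ubiquitin ligase subunit that steers breaks towards recombination, had 83.7, 85.9 and 79.3 CPM in VCaP NSI and 80.5, 78.2 and 70.5 in siFOXA1. The 2 groups overlapped, and the change was −0.12 (SE 0.07, adjusted p = 0.184). In PC3 it stood at 8.69, 9.33 and 8.14 CPM against 8.38, 8.21 and 8.86 (log2 fold change −0.04, SE 0.10, adjusted p = 0.798). BARD1, which pairs with BRCA1 through their RING domains, fell in VCaP by 0.52 on the log2 scale (SE 0.07, adjusted p = 0.000213) from 115 to 123 CPM down to 77.4 to 88.6. BRCA2 (ENSG00000139618.14_3, chr13:32889611-32974403, plus strand) had 49.1, 49.5 and 25.5 CPM in VCaP NSI and 52.0, 47.3 and 43.98 in siFOXA1. NSI replicate 3 stood apart from the other 2, and the log2 fold change of 0.21 had an SE of 0.21 (adjusted p = 0.451). In PC3, BRCA2 had 3.52, 3.70 and 3.07 CPM in NSI and 5.24, 3.56 and 5.09 in siFOXA1, where replicate 2 overlapped NSI (log2 fold change 0.44, SE 0.17, adjusted p = 0.085). PALB2, the bridge between BRCA1 and BRCA2, had log2 fold changes of −0.04 in PC3 and 0.19 in VCaP, neither called.

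The genes of break sensing and end resection divided. EXO1, the exonuclease that lengthens the trimmed strand, had 32.7, 33.1 and 35.01 CPM in VCaP NSI and 20.2, 16.9 and 15.7 in siFOXA1. The groups did not overlap, and the log2 fold change was −0.93 (SE 0.09, adjusted p = 3.83e-05). In PC3 its NSI libraries, at 4.73, 7.72 and 4.46 CPM, surrounded the siFOXA1 values of 5.00, 5.75 and 5.53, and the log2 fold change was −0.05 (SE 0.20). BLM (ENSG00000197299.10_2, chr15:91260558-91359395, plus strand), the Bloom syndrome helicase that unwinds ends and dissolves crossovers, fell in both lines. Its VCaP libraries went from 34.5, 35.8 and 35.2 CPM to 23.2, 21.5 and 20.3 (log2 fold change −0.70, SE 0.06, adjusted p = 2.64e-05). Its PC3 libraries went from 2.59, 3.58 and 2.24 CPM to 1.69, 1.90 and 1.87 (log2 fold change −0.62, SE 0.19, adjusted p = 0.0382). NBN, a subunit of the complex that senses breaks and activates ATM, rose in PC3 from 59.6, 54.0 and 59.3 CPM to 78.1, 71.3 and 74.9, with no overlap (log2 fold change 0.38, SE 0.08, adjusted p = 0.0123). In VCaP NBN had 64.7, 64.2 and 58.8 CPM against 63.1, 60.4 and 56.8, which overlapped (log2 fold change −0.06, SE 0.06, adjusted p = 0.493). RAD50 and RBBP8 (CtIP), which start resection, were not called in either line in the main fits, which had no block. With the block both were called higher in PC3, and RAD50 also in VCaP. RBBP8 was also called higher in PC3 with library size alone (0.24, adjusted p = 0.0495), and RAD50 in VCaP without the filter (0.22, adjusted p = 0.0471). Same-strand exons of another gene cover 90.6% of the exons of RAD50, so its counts could be split and are uncertain.

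The strand-exchange genes fell in VCaP and were not called in PC3: 5 of 8 fell in VCaP, and 0 of 8 passed even an unadjusted p of 0.05 in PC3. RAD51AP1, which helps the filament capture the intact duplex, had the most negative change of the 39 in VCaP. It had 28.7, 31.7 and 30.3 CPM in NSI and 17.0, 15.8 and 13.3 in siFOXA1, which left 50.8% of the NSI level (log2 fold change −0.98, SE 0.09, adjusted p = 2.81e-05). In PC3 the corresponding values were 4.47, 5.73 and 5.09 against 3.96, 4.803 and 4.41 CPM, which overlapped (log2 fold change −0.22, SE 0.13, adjusted p = 0.261). RAD54L (ENSG00000085999.11_3, chr1:46713367-46744145, plus strand), a motor that drives strand invasion, had 20.5, 20.5 and 22.5 CPM in VCaP NSI and 13.1, 11.9 and 10.4 in siFOXA1 (log2 fold change −0.84, SE 0.09, adjusted p = 7.42e-05). In PC3 RAD54L overlapped, at 5.68, 8.39 and 6.20 CPM against 5.53, 6.32 and 5.64. The recombinase paralogs RAD51C, XRCC2 and XRCC3 changed by −0.56, −0.39 and −0.34 on the log2 scale in VCaP, with adjusted p = 0.000628, 0.00115 and 0.00388. RAD51B, RAD51D and RAD54B were not called in either line, with VCaP values of 0.21, 0.03 and 0.15. Opposite-strand exons cover 45.3% of the exons of XRCC3 and 18.0% of those of RAD54L, and same-strand exons cover 63.3% of those of RAD54B. For other members the largest opposite-strand shares were 26.7% (FANCL), 22.4% (FANCA), 21.0% (MSH6), 11.9% (FANCF) and 8.3% (FANCI). Strand was ignored in counting PC3 and not in VCaP, so PC3 values of these genes could include reads of the other gene. Their differences between the lines carry the same limit.

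Of the Fanconi anaemia genes, 7 of 11 fell in VCaP, and in PC3 1 fell and 1 rose. FANCG (ENSG00000221829.9_4, chr9:35073835-35080013, minus strand), which holds the core complex together, had 35.3, 33.0 and 39.7 CPM in VCaP NSI and 21.2, 21.2 and 18.1 in siFOXA1 (log2 fold change −0.84, SE 0.09, adjusted p = 6.55e-05). In PC3 it had 11.8, 19.3 and 12.5 CPM against 15.2, 18.3 and 15.9, with NSI replicate 2 above all the others (log2 fold change 0.18, SE 0.18, adjusted p = 0.503). FANCA, another core subunit, changed by −0.80 in VCaP and FANCE and FANCC by −0.44 and −0.30, all called, while FANCB, FANCF, FANCL and FANCM stood between −0.06 and 0.15 and were not. The core complex ubiquitinates the pair FANCD2 and FANCI, and both fell in VCaP, by 0.52 and 0.67 on the log2 scale. FANCD2 fell in PC3 too, from 11.5, 14.8 and 11.6 CPM to 9.66, 8.76 and 10.1 (log2 fold change −0.41, SE 0.12, adjusted p = 0.0415). Its VCaP libraries were at 90.6, 93.9 and 98.3 CPM in NSI and 67.8, 65.1 and 64.8 in siFOXA1, with no overlap. BRIP1 (ENSG00000136492.8_2, chr17:59758627-59940882, minus strand), a helicase that binds BRCA1, was the one member called in opposite directions. It rose in PC3 from 3.65, 5.09 and 3.64 CPM to 7.78, 7.60 and 8.15, which was 190.0% of the NSI level (log2 fold change 0.93, SE 0.15, adjusted p = 0.00269). In VCaP it fell from 28.5, 30.6 and 26.4 CPM to 20.9, 20.1 and 18.6 (log2 fold change −0.52, SE 0.08, adjusted p = 0.000451).

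**Figure D3:**
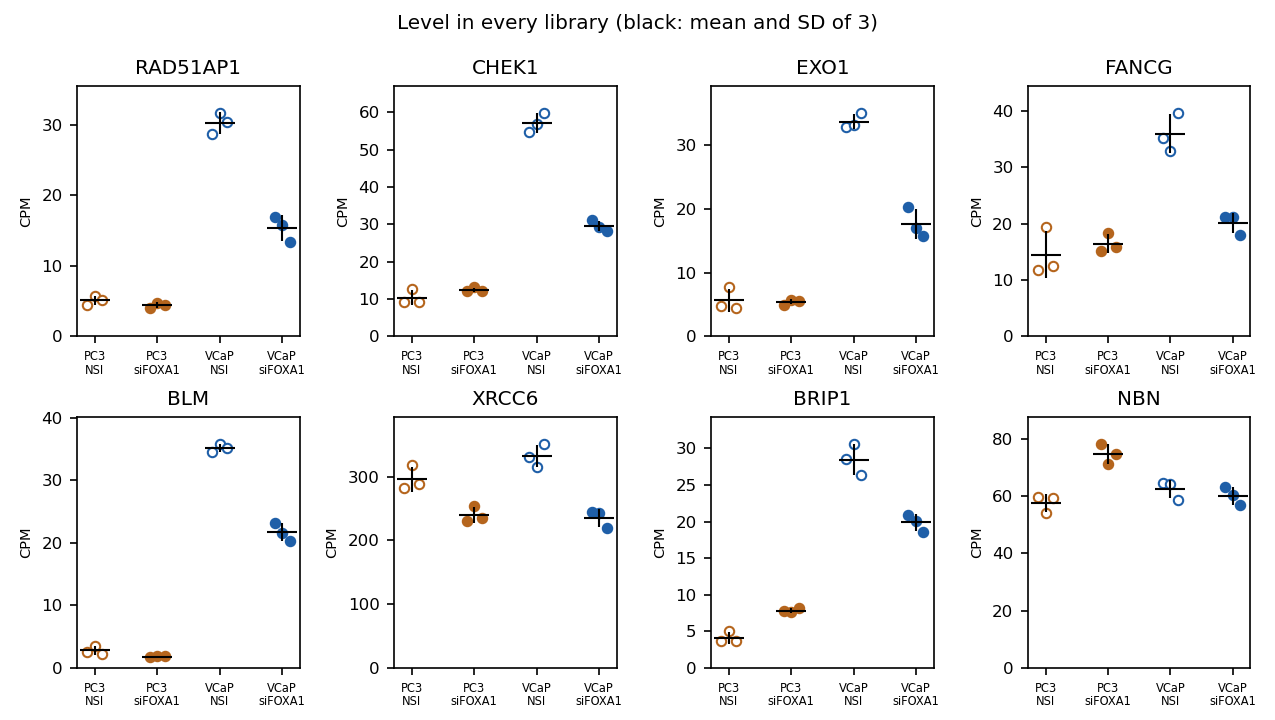
CPM of 8 members in every library, with open circles for NSI, filled circles for siFOXA1 and black bars for the mean and SD of 3, each panel starting at 0. The VCaP groups are apart in every panel but that of NBN, and the BRIP1 panel shows siFOXA1 above NSI in PC3 and below it in VCaP.

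Among the 4 damage kinases and the activator TOPBP1, 3 of 5 fell (60%) and 1 rose (20%) in VCaP. None of the 5 was called in PC3 (ATM and CHEK1 with the block). CHEK1 (ENSG00000149554.12_3, chr11:125495031-125546150, plus strand), the kinase through which ATR stops the cycle, had 54.7, 56.9 and 59.9 CPM in VCaP NSI and 31.1, 29.4 and 28.3 in siFOXA1 (log2 fold change −0.95, SE 0.06, adjusted p = 3.07e-06). In PC3 it had 9.34, 12.8 and 9.10 CPM against 12.1, 13.1 and 12.0, overlapping only through NSI replicate 2 (log2 fold change 0.25, SE 0.14, adjusted p = 0.212). CHEK2, the target of ATM, fell in VCaP by 0.46 and TOPBP1, the activator of ATR, by 0.40 on the log2 scale. The annotation holds a named pseudogene of CHEK2 (CHEK2P5) and of PMS2 (PMS2CL). Multi-mapping fragments were divided in counting, so the counts of CHEK2 and PMS2 could be shared with these and are uncertain. ATR, the kinase of stalled forks, rose in VCaP from 79.4, 79.2 and 75.8 CPM to 87.1, 88.7 and 88.4 (log2 fold change 0.17, SE 0.05, adjusted p = 0.026), a small change with no overlap. In PC3 ATR overlapped, at 30.1, 23.6 and 27.3 CPM against 29.6, 23.5 and 28.2. The call for ATR was lost in 7 of 13 alternative fits, at adjusted p = 0.0655 to 0.182, 4 of which left out NSI replicate 1 or 3 or siFOXA1 replicate 1 or 2. ATM (ENSG00000149311.18_2, chr11:108093559-108239829, plus strand), the kinase of double-strand breaks, had 149.5, 155 and 133.5 CPM in VCaP NSI and 163, 167 and 168 in siFOXA1, a log2 fold change of 0.19 that was not called (SE 0.07, adjusted p = 0.0581). Without NSI replicate 2 it was 0.22 with an adjusted p of 0.0408. In PC3, ATM had 66.1, 44.1 and 64.1 CPM against 72.5, 55.7 and 71.9, with replicate 2 low in both groups (log2 fold change 0.20, SE 0.17, adjusted p = 0.41).

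All 3 end-joining genes fell in VCaP and 2 of 3 fell in PC3. XRCC6 had 281, 318 and 288.5 CPM in PC3 NSI and 230, 254 and 235 in siFOXA1, with no overlap (log2 fold change −0.30, SE 0.09, adjusted p = 0.0338). In VCaP it went from 331, 315 and 350.5 CPM to 244, 243 and 219 (log2 fold change −0.50, SE 0.07, adjusted p = 0.000499). XRCC5 went in PC3 from 199.6, 198 and 199 CPM to 162, 163 and 176 (log2 fold change −0.25, SE 0.08, adjusted p = 0.0431). In VCaP XRCC5 went from 339.5, 323 and 332 CPM to 275, 260.0 and 255 (log2 fold change −0.33, SE 0.06, adjusted p = 0.0024). PRKDC, which the Ku ring recruits, changed by −0.23 in VCaP (adjusted p = 0.0482) and stood at −0.34 in PC3 (SE 0.16, adjusted p = 0.14). In mismatch repair, MSH6, which reads mispaired bases, changed by −0.19 in VCaP (adjusted p = 0.0367). PMS2, which nicks the strand to be repaired, was called in neither line in the main fits. In PC3 it was called lower with the block or without NSI replicate 2. PARP1 (ENSG00000143799.12_2, chr1:226548392-226595780, minus strand) had 324, 317 and 332 CPM in VCaP NSI and 341, 338 and 338 in siFOXA1, which did not overlap, and the log2 fold change of 0.06 was not called (SE 0.06, adjusted p = 0.417). In PC3 PARP1 stood at 157, 166 and 160 CPM against 164, 169.9 and 169.6 (log2 fold change 0.06, SE 0.08, adjusted p = 0.59). The VCaP calls for MSH6 and PRKDC were lost in the fit of all 12 libraries (adjusted p = 0.215 and 0.353), and that for MSH6 with DESeq2 (0.0583), library size alone (0.0516) and no filter (0.0556). MSH6 was also not called when NSI replicate 2 (0.0982) or siFOXA1 replicate 1 (0.113) or 2 (0.129) was left out, and PRKDC when NSI replicate 2 (0.0727) or 3 (0.108), or siFOXA1 replicate 1 (0.135) or 2 (0.171), was left out.

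The 6 PC3 calls were sensitive to single libraries, BRIP1 excepted, which was called in all 13 alternative fits. NSI replicate 2 had the highest NSI value of 25 of the 39 members in PC3. BLM was not called when NSI replicate 1 (adjusted p = 0.0581) or 2 (−0.41, 0.0611), or siFOXA1 replicate 1 (0.137) or 3 (0.068), was left out. The same was true of FANCD2 for NSI replicate 2 (−0.28, 0.0611) or 3 (0.0656), and for siFOXA1 replicate 1 (0.116) or 2 (0.0636). NBN lost its call with siFOXA1 replicate 1 (0.0693) or 3 (0.0666) left out, and XRCC6 with NSI replicate 3 (0.0849), or siFOXA1 replicate 1 (0.146) or 3 (0.0739). XRCC5 was lost without any one library other than NSI replicate 2, at adjusted p = 0.0535 to 0.175. Conversely, without NSI replicate 2, FANCG (log2 fold change 0.44, adjusted p = 0.0181) and CHEK1 (0.43, 0.011) were called higher and PMS2 (−0.39, 0.0167) and PRKDC (−0.47, 0.0359) lower, and without siFOXA1 replicate 2 BRCA2 was called higher (0.56, 0.0182). With the replicate block, 42.7% of all genes were called in PC3. In VCaP only replicate 3 matched best with its own number. The block there gave 22 lower and 2 higher members, with 24.8% and 25.3% of all genes called, 50.1% together. The PC3 values with the block were BRCA2 (0.42, adjusted p = 0.0433), RAD50 (0.24, 0.0209), RBBP8 (0.18, 0.0334), ATM (0.21, 0.0244) and CHEK1 (0.27, 0.0361), all higher, and PMS2 (−0.26, 0.0154) and PRKDC (−0.34, 0.00287), both lower.

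The effect of siFOXA1 was more negative in VCaP than in PC3 for 11 members, by an interaction test on the 12 libraries together. Over all 30425 genes tested for such a difference, 22.2% were called; 11% were called lower in VCaP and 11.3% higher, and of the members 28.2% were lower and 0 higher. At an unadjusted p of 0.05 the counts were 14 lower and 2 higher, and DESeq2 called 14 lower, among them FANCC, FANCI and TOPBP1, and 0 higher. BRIP1 had the most negative difference, −1.43 on the log2 scale (SE 0.16, adjusted p = 1.32e-05), followed by CHEK1 at −1.19 (SE 0.15, adjusted p = 3.86e-05) and FANCG at −1.001 (SE 0.21, adjusted p = 0.00285). EXO1, BARD1, RAD51AP1, FANCA, RAD54L, RAD51C, CHEK2 and NBN followed, between −0.86 and −0.41. Of 17 members lower in VCaP and not called in PC3, 9 had a called difference. For the other 8 (XRCC2, XRCC3, FANCC, FANCE, FANCI, TOPBP1, MSH6 and PRKDC) the effects in the lines were not shown to differ, though FANCI (−0.44, adjusted p = 0.0518) was called in 10 of 18 alternatives and FANCC (−0.35, adjusted p = 0.0665) in 8. Without PC3 NSI replicate 2 the difference was −0.64 for FANCI (adjusted p = 0.000953) and −0.43 for FANCC (0.0217), and without PC3 siFOXA1 replicate 1 or 2 both were called too (0.0196 to 0.0494). FANCC was also called without PC3 NSI replicate 1 (0.0483), FANCI without VCaP siFOXA1 replicate 1 (0.0435), and MSH6 without PC3 siFOXA1 replicate 2 (−0.42, 0.0218). PMS2 was called higher without PC3 NSI replicate 2 (0.47, 0.0114). The 4 members lower in PC3, BLM, FANCD2, XRCC5 and XRCC6, were also among the 22 lower in VCaP, with differences between −0.17 and −0.06 that were not called. Across the 39 members the changes in the lines had a Pearson correlation of 0.25 and a Spearman correlation of 0.32, given as a description, since the points share 12 libraries. The call for NBN was lost without VCaP NSI replicate 1 (adjusted p = 0.0519) or siFOXA1 replicate 3 (0.0513). That for RAD51C was lost without VCaP siFOXA1 replicate 2 (0.0562), and that for RAD54L without VCaP NSI replicate 3 (0.0623) or siFOXA1 replicate 2 (0.0514) or 3 (0.0671).

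**Figure D4:**
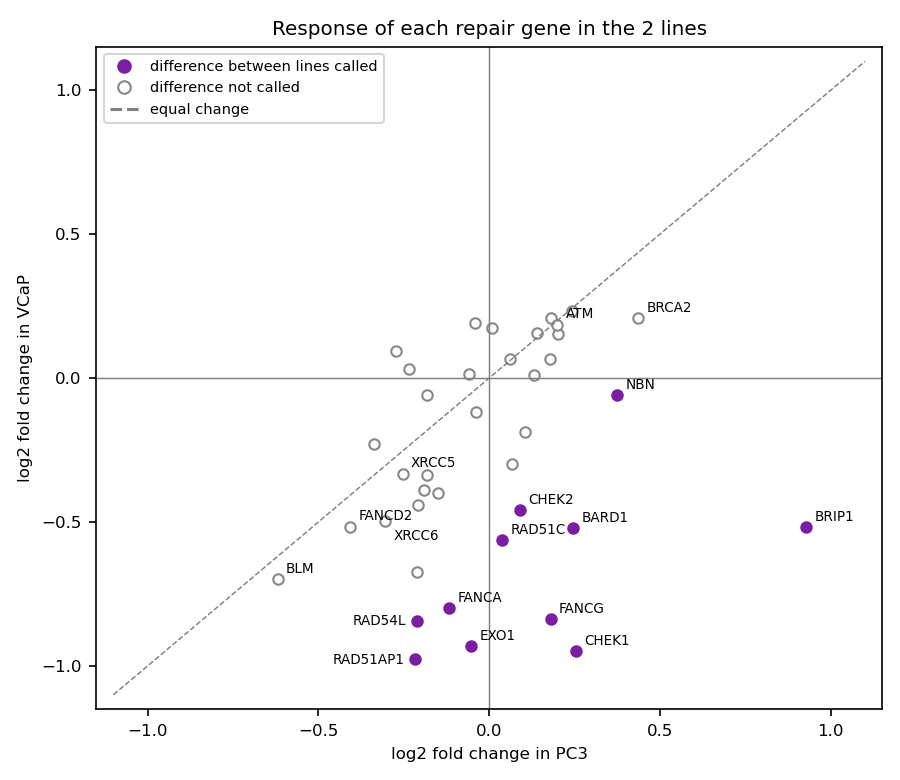
Log2 fold change of each of the 39 genes in PC3 (x) and VCaP (y), with the dashed line marking equal change and filled symbols an adjusted p under 0.05 for the difference. BRIP1 is the filled symbol farthest to the right, and BLM, FANCD2, XRCC5 and XRCC6 lie near the dashed line.

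The rest of the repair network, 78 further genes in 4 lists, also leaned lower in VCaP. There, 35 of 78 fell and 10 rose (median −0.16), or 44.9% and 12.8% against 23.3% and 22.5% of all genes. In PC3 7 fell and 6 rose (median −0.03), or 8.97% and 7.69%, below the 12.1% and 15% of all genes. In recombination and crosslink repair, 11 of 26 fell and 4 rose in VCaP and 3 fell and 1 rose in PC3. UBE2T, the conjugating enzyme that ubiquitinates FANCD2, changed by −1.12 in VCaP (adjusted p = 2.9e-05) and by −0.68 in PC3 (adjusted p = 0.0397). RMI2, a partner of BLM, went the way of BRIP1: it rose in PC3 from 1.56, 2.68 and 2.05 CPM to 4.31, 4.68 and 4.803 (log2 fold change 1.14, SE 0.19, adjusted p = 0.00322). In VCaP it fell from 11.0, 10.5 and 12.2 CPM to 7.09, 6.60 and 6.46 (log2 fold change −0.74, SE 0.09, adjusted p = 0.000151), a difference of −1.86 (adjusted p = 1.3e-05). ABRAXAS1, which brings BRCA1 to ubiquitin marks, rose by 0.72 in VCaP (adjusted p = 7.15e-05).

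In the checkpoint and fork list, 7 of 18 fell and 1 rose in VCaP, and 0 fell and 2 rose in PC3. CLSPN, which brings CHEK1 to ATR, had the most negative VCaP change, −1.13 (adjusted p = 5.89e-06), and RECQL, a helicase, rose by 0.27 (adjusted p = 0.00924). ATRIP, the partner of ATR, rose in PC3 by 0.61 (adjusted p = 0.00433). For end joining and end choice, 4 of 13 fell and 3 rose in VCaP (30.8% and 23.1%, near the 23.3% and 22.5% of all genes), and 0 fell and 1 rose in PC3, where 1 was lower at an unadjusted p of 0.05. LIG4, the ligase that seals joined ends, rose by 0.61 in VCaP (adjusted p = 0.000715) and by 0.44 in PC3 (adjusted p = 0.0246), and MAD2L2, a shieldin subunit, changed by −0.80 in VCaP (adjusted p = 5.07e-05). Excision and mismatch repair had 13 of 21 lower and 2 higher in VCaP, with POLB, the gap-filling polymerase, at −1.29 (adjusted p = 2.82e-06) and PMS1 at 0.41 (adjusted p = 0.00023). In PC3 that list had 4 lower and 2 higher, with ERCC3, a helicase of TFIIH, at −0.50 (adjusted p = 0.00374) and PARP3 at 0.62 (adjusted p = 0.000964).

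All 24 listed proliferation genes were called lower in VCaP (median −0.87) and 11 of 24 fell in PC3 (median −0.47), with 0 higher in either line. At an unadjusted p of 0.05, 14 were lower and 0 higher in PC3, and DESeq2 called 12 lower and 0 higher. RRM2, a subunit of ribonucleotide reductase, had the most negative VCaP change, −2.29 (adjusted p = 6.71e-07), and the mitotic kinase AURKA the most negative in PC3, −1.08 (adjusted p = 3.71e-05). Their summed level per library went from 3270 to 3410 CPM in VCaP NSI to 1740 to 2120 in siFOXA1, and from 962 to 1120 CPM to 669 to 701 in PC3. Interferon response genes also moved: all 14 rose in PC3 (median 3.66), and their sum went from 561 to 806 CPM to 6030 to 6210. In VCaP 8 of 12 tested rose and 2 fell, and their sum stayed at 167 to 177 CPM in NSI and 157 to 172 in siFOXA1. The largest PC3 rise in the list was that of MX2 at 5.00 (adjusted p = 4.94e-05), and in VCaP IFI44 stood at 1.97 and ISG15 at −0.69. The part of either list in the changes of the repair genes was not tested.

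**Figure D5:**
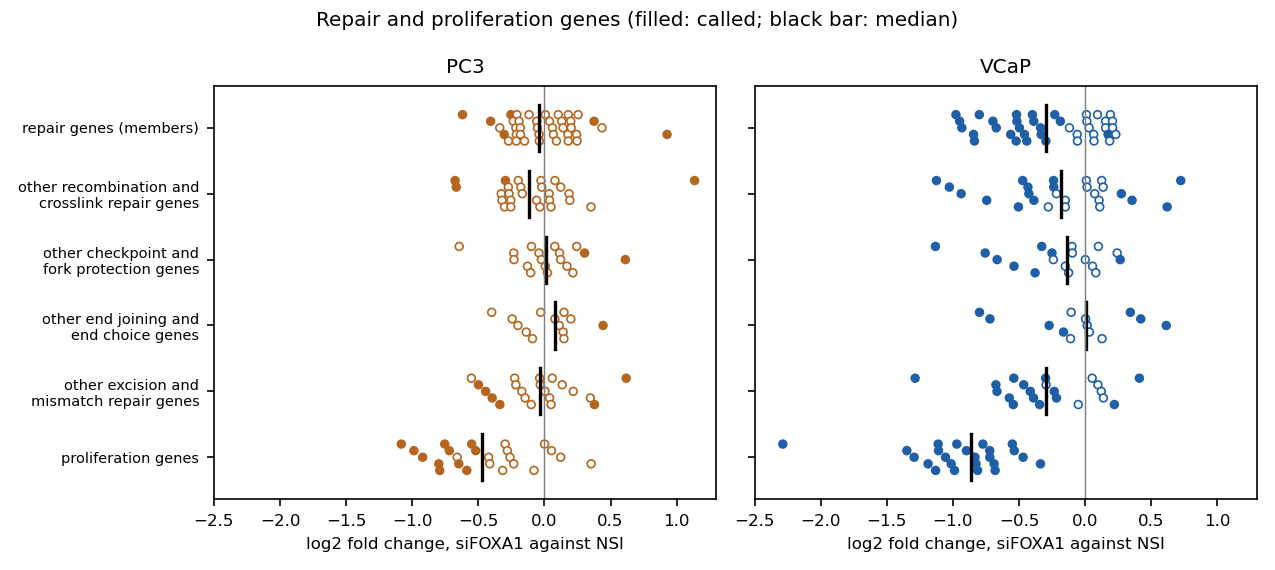
Log2 fold change of each gene in the 39 repair members, the 4 lists of further repair genes and the proliferation list, in PC3 (left) and VCaP (right), with filled symbols called and the black bar at the list's median. The proliferation medians lie at −0.47 in PC3 and −0.87 in VCaP, to the left of the repair lists in both lines.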

How the data were processed

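RNA was sequenced from 12 libraries of 2 cell lines, 4 groups of 3. The deposited values, not normalized, were expected counts per gene that the authors made, per the file headers, with featureCounts 2.0.0 from GENCODE 28 exons lifted to GRCh37, counting fragments with both ends mapped and dividing multi-mapping and overlapping fragments. Strand was ignored in counting PC3 and read as reverse in VCaP, per the file headers, so in PC3 antisense partners cannot be told apart. The submitters' processing notes also name STAR 2.7.3a and Subread 2.0.0.

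Counts were rounded. Each line was fitted with edgeR 4.0.16 in R 4.3.3 (filterByExpr, TMM, two-sided quasi-likelihood test), and p-values were adjusted over all genes tested by the Benjamini-Hochberg method; a call was an adjusted p under 0.05. Both lines entered 1 interaction fit. DESeq2 1.42.0 was an alternative. The pipeline was tested on simulated data. Of the values above 0, 54.8% to 75.2% per library were fractional. No 2 replicates were copies: chi-square per degree of freedom was 9.8 or more. In PC3, same-numbered libraries deviated together (r = 0.49, 0.63 and 0.24), from the numbers in the titles, though replicate 3 did not match best with its own number.

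The members and lists were chosen with earlier results of these data known. Values of every library are given for FOXA1, for the called members with the most negative or positive change (up to 5 per direction and line, 3 for the difference), and for BRCA1, BRCA2, ATM and PARP1.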

Additional observations from a re-analysis of the deposited data

Results flagged for a closer look

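The effect of siFOXA1 differed between the lines, by the interaction term over 12 libraries, for FOXA1 itself and 11 members. The VCaP minus PC3 difference of the log2 fold change was −1.93 for FOXA1, the siRNA target. In the Fanconi anaemia pathway it was −1.43 for BRIP1, −1.001 for FANCG and −0.66 for FANCA. Among the kinases it was −1.19 for CHEK1 and −0.53 for CHEK2. For EXO1, which resects ends, it was −0.86, for BARD1, the partner of BRCA1, −0.75, and for NBN, the break sensor, −0.41. In strand exchange it was −0.74 for RAD51AP1, −0.61 for RAD54L and −0.58 for RAD51C. Line, kit, dose, medium, the depth of the FOXA1 knockdown and the way strand was counted cannot be told apart in these differences.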

How the results depend on the processing

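For each line 13 alternative fits were made, and 18 for the difference. In VCaP 20 of 23 called members were called in all 13, in PC3 1 of 6 (BRIP1), and for the difference 8 of 11 in all 18. TMM factors computed before the filter were added after seeing the data. Scaling by library size alone gave 1 lower member in PC3, a PC3 median of 0.0197 against −0.039, and 0 higher in VCaP. The median over all genes tested in PC3 moved as well, to 0.0753 against 0.0176, so the members stayed below it. The fit of all 12 libraries also gave 0 higher in VCaP. Leaving out 1 library gave 0 to 4 lower and 1 to 4 higher in PC3, a PC3 median of −0.0833 to 0.0099 (0.0099 without NSI replicate 2), 20 to 22 lower and 0 to 2 higher in VCaP, a VCaP median of −0.33 to −0.24, and 9 to 14 lower and 0 to 1 higher differences. The causes were not tested.

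In PC3, where replicates 1 and 2 matched best with their own number and 3 did not, the block gave 6 lower and 7 higher members. In VCaP the same-number correlations were 0.11, 0.02 and 0.37, so the libraries deviated together for replicate 3 and little for 1 and 2. The block gave 2 higher members in VCaP (RAD50 added, 0.24, adjusted p = 0.0181), and 1 of 3 VCaP numbers matched best with its own. For the difference the block gave 1 higher member (PMS2, 0.38, adjusted p = 0.00903) and added FANCC (−0.34, 0.0354), FANCI (−0.46, 0.0169) and MSH6 (−0.27, 0.0488) as lower.

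Calls over all genes moved between the fits too. In PC3 21% were lower and 21.7% higher with the block, against 12.1% and 15% without it. Lower calls there were 3194 of 26435 genes in the main fit, 4165 with DESeq2, 3632 with early TMM factors and 4159 of 30425 with all libraries. For the further lists in PC3, the lower counts of recombination genes were 5 with DESeq2, 9 with the block, 5 with early TMM factors and 7 with all libraries (0 to 5 leaving out 1), against 3, and the higher count was 4 with the block (1 to 2). Checkpoint genes had 3 lower with the block and 1 with DESeq2, its size factors, no filter, early TMM factors or all libraries (0 to 1), against 0, and 1 higher without a filter (1 to 5), against 2. End joining had 1 lower with DESeq2 and 2 with the block (0 to 1), and 2 higher with the block (0 to 1). Excision repair had 2 lower with library size (1 to 4) and 4 higher with the block (1 to 4). Proliferation had 17 lower (9 to 11) and 1 higher (0 to 2) with the block. In VCaP, checkpoint genes had 2 higher with the block (1 to 2), end joining 2 lower with all libraries (2 to 4), and excision repair 1 higher with DESeq2, no filter or all libraries (1 to 2).

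The lowest member count in a library was 170 (RAD51B).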
